A study of Mus musculus with 16 samples.

Results

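The genes of MHC class II presentation were followed through liver RNA-seq of db/db mice that received either of a pair of AAV8 vectors. The set held 10 genes, found by symbol among the 40324 distinct symbols of the count table: the class II chains H2-Aa, H2-Ab1 and H2-Eb1, the invariant chain Cd74, the peptide-loading genes H2-DMa, H2-DMb1 and H2-DMb2, their inhibitor genes H2-Oa and H2-Ob, and the class II transactivator Ciita. All 16 livers came from db/db littermates, mice without functional leptin receptors that grow obese and diabetic. Vectors were given at an age of about 5 weeks, and livers were taken 5 weeks after that, at 10 weeks. The control group (8 livers) received AAV8, a liver-tropic adeno-associated virus, encoding eGFP (here GFP), and the other group (8 livers) received AAV8 encoding arcA. The sources used here give neither what arcA encodes nor which promoter drove either transgene. The labels number the livers without saying that each is a separate mouse, so the p-values measure the spread among these 16 samples.

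MHC class II molecules are pairs of an alpha and a beta chain that carry peptides from the endosome to the cell surface, where CD4 T cells read them. The invariant chain, the product of Cd74, fills the groove of newly made class II; proteases trim it to a short peptide called CLIP, and H2-DM exchanges CLIP for other peptides. H2-O, found mainly in B cells, holds H2-DM back. Ciita does not bind DNA itself. It docks on RFX, CREB and NF-Y proteins at the X and Y boxes of class II promoters and switches the genes on, and interferon-gamma induces it. In liver, the carriers of class II include Kupffer cells and other macrophages, dendritic cells and B cells, and hepatocytes normally carry little.

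Total counts ranged from 28912600 to 53520800 per library. Reads of Gm42418, a gene known to collect ribosomal RNA, made up 11.8%, 18.1% and 19.4% of the GFP 2, GFP 3 and GFP 5 libraries and 2.29% to 7.37% of the other 13. In the arcA group, arcA 3 stood apart for class II genes, so their fold changes are also given without it. The liver label fitted the hepatocyte markers: Alb, the albumin gene, averaged 60761 CPM (reads scaled to a common library total) in GFP livers. Over all genes, edgeR's quasi-likelihood test with Benjamini-Hochberg adjustment called 951 genes lower and 618 higher in arcA livers at adjusted p under 0.05; 39.4% of the calls were rises, against 24.0% with scaling by library size alone and 18.8% with scaling on hepatocyte markers.

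Class II genes were lower in arcA livers. Of the 10 genes, 9 passed the filter on low counts, and 9 fell and 0 rose (edgeR, adjusted over all 14476 genes tested). Of all genes tested, 6.57% were called lower, 4.27% higher and 10.8% either way. Their log2 fold changes ran from -1.93 for H2-Aa to -1.23 for H2-Ob, with a median of -1.63, against a median of 0.00915 over all genes tested. H2-Oa, the remaining gene, was below the filter. The genes were chosen with earlier results of these data known, so these counts are a description. In bulk liver RNA, fewer class II-bearing cells and less class II RNA per cell cannot be told apart.

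**Figure D1:**
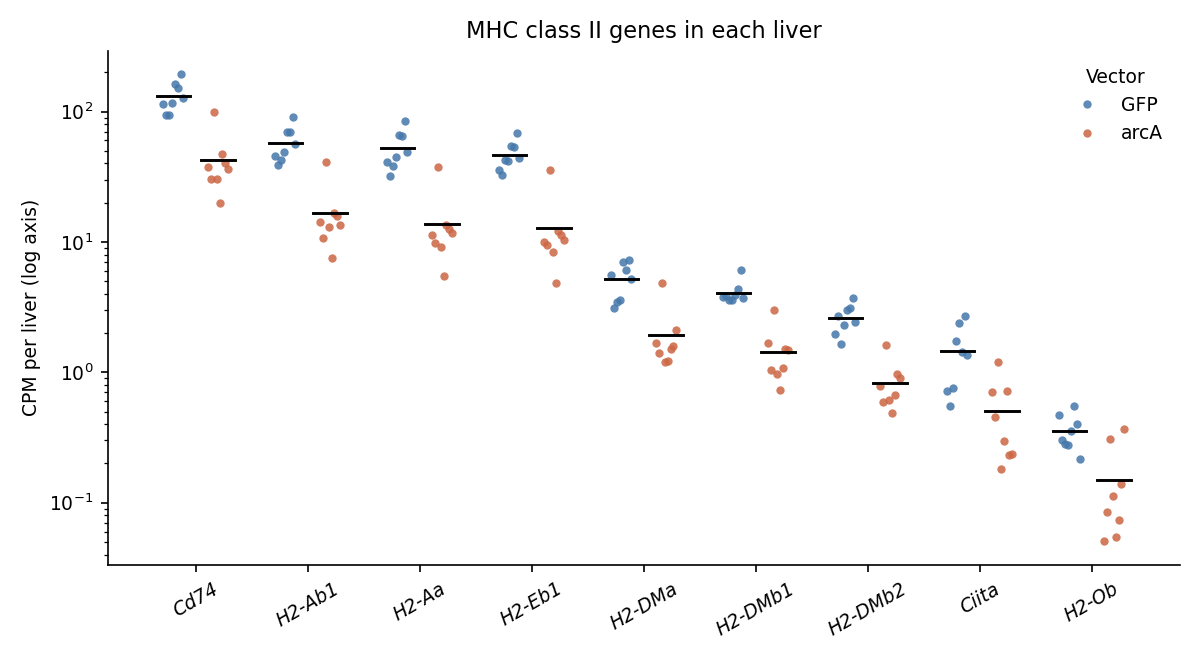
CPM of the 9 tested class II genes (log axis) in each of 8 GFP and 8 arcA livers; points are livers and black bars are group means. Most arcA livers sit below every GFP liver for the chains, Cd74 and the H2-DM genes, and arcA 3 is the highest arcA point for 8 of the 10 class II genes (H2-Oa is not drawn).

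Cd74 and the chain genes held most of the class II reads. Cd74 (chromosome 18, 60803848 to 60812652, GRCm38), the invariant chain gene, ranged over 94.0, 122 and 194 CPM (lowest, median, highest) in GFP livers and over 19.8, 36.8 and 99.5 CPM in arcA livers. Of the 8 arcA livers, 7 lay below the lowest GFP liver, and arcA 3 lay inside the GFP range. Its log2 fold change was -1.63 (SE 0.286, adjusted p = 0.00247, edgeR), or 3.09-fold lower, and it was -1.95 without arcA 3.

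H2-Aa and H2-Ab1 encode the alpha and beta chains of the mouse I-A molecule, and H2-Eb1 the beta chain of I-E. H2-Aa (chromosome 17, 34282744 to 34287823) had 32.1, 46.8 and 85.3 CPM as its lowest, median and highest value in GFP livers and 5.43, 11.5 and 37.3 CPM in arcA livers. H2-Ab1 (chromosome 17, 34257689 to 34269419) had 38.9, 52.3 and 90.4 CPM in GFP and 7.55, 13.8 and 41.2 CPM in arcA livers, in the same order. H2-Eb1 (chromosome 17, 34305867 to 34316674) had 32.8, 43.4 and 68.6 CPM and 4.86, 10.2 and 35.9 CPM. For each of these chains, arcA 3 alone reached the GFP range; the next arcA liver had 13.4, 16.7 and 12.1 CPM of H2-Aa, H2-Ab1 and H2-Eb1. On the log2 scale, H2-Aa fell by 1.93 (SE 0.345, adjusted p = 0.00277), H2-Ab1 by 1.80 (SE 0.307, adjusted p = 0.0021) and H2-Eb1 by 1.87 (SE 0.334, adjusted p = 0.00276) with edgeR. Without arcA 3 the log2 fold changes were -2.34, -2.16 and -2.31.

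The alpha chain of I-E is encoded by H2-Ea, which the table lists as H2-Ea-ps and GENCODE M21 as a polymorphic pseudogene (chromosome 17, 34341959 to 34344645), since C57BL/6 mice, the source of the reference genome, carry an allele that is not transcribed. In these livers it was read: H2-Ea-ps had 12.9, 16.5 and 27.1 CPM as its lowest, median and highest value in GFP livers and 2.47, 5.03 and 12.0 CPM in arcA livers, with no overlap between the groups. H2-Ea-ps fell by 1.70 (SE 0.263, adjusted p = 0.000914, edgeR). The labels do not give the background strain, and how far class II alleles that differ from the reference lost reads in mapping was not tested. The related genes H2-Eb2 and Btnl2 were too low to test: H2-Eb2 had 28 counts in all GFP livers together and 9 in all arcA livers, and Btnl2 had 34 and 6.

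H2-DMa, H2-DMb1 and H2-DMb2 encode the chains of H2-DM, the peptide exchanger. H2-DMa had 3.13, 5.39 and 7.21 CPM as its lowest, median and highest value in GFP livers and 1.2, 1.54 and 4.81 CPM in arcA livers. It fell by 1.41 (SE 0.283, adjusted p = 0.00422, edgeR), and arcA 3 was again the only arcA liver inside the GFP range. H2-DMb1 had 3.55, 3.79 and 6.04 CPM in GFP and 0.733, 1.28 and 2.99 CPM in arcA livers, in the same order, and fell by 1.51 (SE 0.219, adjusted p = 0.000262). H2-DMb2 had 1.64, 2.55 and 3.72 CPM and 0.489, 0.724 and 1.61 CPM and fell by 1.65 (SE 0.221, adjusted p = 9.70e-05). H2-DMb1 and H2-DMb2 were the class II genes whose groups did not overlap at all, 2 of 9 tested, beside 1.2% of all genes tested with every arcA liver below every GFP liver and 0.566% with every arcA liver above. With arcA 3 left out, 7 of the 9 had no overlap, beside 2.11% of all genes tested. That liver was chosen for its high levels of these same genes, so this count is a description and cannot be weighed against the share of all genes. The H2-DM beta genes are close copies: 22.7% of the 50-base windows of H2-DMb1 transcripts also occur in H2-DMb2, so the split of reads between them is uncertain. Without arcA 3 the log2 fold changes of H2-DMa, H2-DMb1 and H2-DMb2 were -1.77, -1.76 and -1.87. Counted as a single gene, H2-DMb1 and H2-DMb2 fell by 1.56 (SE 0.216, adjusted p = 0.000215). Of the H2-DMa windows, 8.43% are shared with its neighbour Brd2.

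The H2-O genes were near the limit of detection. H2-Ob had 0.214, 0.33 and 0.549 CPM as its lowest, median and highest value in GFP livers and 0.0505, 0.0988 and 0.368 CPM in arcA livers, from 117 counts in the GFP livers together and 51 in the arcA livers. Of the 8 arcA livers, 6 lay below every GFP liver, and arcA 8 and arcA 3 lay inside the GFP range. H2-Ob fell by 1.23 (SE 0.38, adjusted p = 0.0423, edgeR), but the call was lost in 11 of the 16 fits that left out 1 library (highest adjusted p = 0.0901) and held without GFP 3, 4 or 8 or arcA 3 or 8. It was also lost under library-size scaling, under hepatocyte-marker scaling, without GFP 2, 3 and 5 together, and with no filter (adjusted p = 0.051, 0.0503, 0.0808 and 0.0768, edgeR). Without arcA 3 the log2 fold change of H2-Ob was -1.47. H2-Oa had 21 counts in the GFP livers together and 10 in the arcA livers, from 1 to 6 in each GFP liver and from 0 to 4 in each arcA liver. Tested without the filter, H2-Oa differed on the log2 scale by -1.11 (SE 0.815, adjusted p = 0.48, edgeR), so a difference in H2-Oa was not detectable at this depth. That fit called 8 of the 10 class II genes lower, beside 3.84% of the genes it tested.

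Per kilobase of exon, Cd74 was the highest, at 78.4 ± 21.0 CPM per kilobase in GFP and 25.4 ± 14.5 in arcA livers (SD, n = 8 each). H2-Eb1, H2-Ab1, H2-Ea-ps and H2-Aa followed with 24.0 ± 5.98, 22.5 ± 6.88, 17.4 ± 4.36 and 13.9 ± 4.71 CPM per kilobase in GFP livers. Each of these neighbours differed by less than the larger of the SDs of the pair. The H2-DM genes had 2.43 (H2-DMb1), 1.5 (H2-DMa) and 1.49 (H2-DMb2) CPM per kilobase, Ciita had 0.153, and H2-Ob and H2-Oa had 0.0662 and 0.0501. The lengths count every exon annotated in GENCODE M21, whether or not liver uses it.

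Ciita (chromosome 16, 10480059 to 10528418), which switches on the other class II genes, had 0.553, 1.4 and 2.7 CPM as its lowest, median and highest value in GFP livers and 0.181, 0.375 and 1.21 CPM in arcA livers. All 8 arcA livers were below the GFP median and 5 were below the lowest GFP liver. Ciita fell by 1.54 (SE 0.405, adjusted p = 0.0199, edgeR), 2.9-fold lower; without arcA 3 its log2 fold change was -1.88. With a block for the replicate number of the labels its adjusted p was 0.0844 (edgeR), so that call was lost. The labels do not say whether same-numbered livers are pairs.

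Letters of the X and Y boxes, through which Ciita acts, were looked for in class II promoters, and the stretches that hold them are printed. Their part in the fall of these genes was not tested. H2-Ab1, Cd74 and Ciita had no promoter window to search. RefSeq promoter windows of GRCm38.p6, from 250 bases before to 50 after a start site, came from a table that matched 7 of the 10 genes. They were searched on both strands for AACNNATGA, letters where the X1 box runs into X2, for AACTTTGACG, the version in H2-Aa, and for the Y box core TGATTGG, which holds a CCAAT box on the other strand. These letters were chosen after the promoters were read. Each stretch runs 5′ to 3′ on the strand of its gene, with the X and Y box letters in capitals. All are on chromosome 17, H2-Aa at chr17:34287859-34287910 (minus strand), H2-Eb1 at chr17:34305770-34305820, H2-DMb1 at chr17:34153091-34153142, H2-DMb2 at chr17:34145120-34145171, H2-Ob at chr17:34238812-34238860 and H2-Oa at chr17:34092281-34092348 (plus strand). The RefSeq starts of H2-DMa, H2-DMb1, H2-DMb2 and H2-Oa lie downstream of the first base that GENCODE gives these genes.
H2-Aa: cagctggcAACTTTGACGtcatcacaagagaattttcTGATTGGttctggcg
H2-Eb1: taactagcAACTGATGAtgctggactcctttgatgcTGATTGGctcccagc
H2-DMb1: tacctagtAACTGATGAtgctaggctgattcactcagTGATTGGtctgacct
H2-DMb2: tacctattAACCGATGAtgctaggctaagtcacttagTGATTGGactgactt
H2-Ob: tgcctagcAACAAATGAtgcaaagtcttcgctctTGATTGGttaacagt
H2-Oa: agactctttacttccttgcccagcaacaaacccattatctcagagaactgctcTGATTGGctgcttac

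H2-Eb1, H2-DMb1, H2-DMb2 and H2-Ob each hold the X box letters followed by the Y box letters on the same strand, with 19, 20, 20 and 17 bases between them. H2-Aa holds its own version 19 bases before the Y box. In H2-Oa, only the Y box letters matched. Neither set of letters was in the H2-DMa windows (chr17:34122582-34122881 and chr17:34125268-34125567). Those windows lie downstream of the first base that GENCODE gives H2-DMa, 34119541, so the bases before that start were not searched. TGATTGG was in 7.82% of all 32851 promoter windows of this length, AACNNATGA in 2.85%, AACTTTGACG in 0.0183%, and AACNNATGA followed within 30 bases by TGATTGG in 7 windows. Of those 7, 4 are the windows of H2-Eb1, H2-DMb1, H2-DMb2 and H2-Ob. A match is a description of the letters and no evidence that a factor was bound. The bases upstream of the start sites of H2-Aa (chr17:34287824-34288073, minus strand) and H2-Eb1 (chr17:34305617-34305866, plus strand), 250 each, show where the boxes lie, with the same letters in capitals.
H2-Aa: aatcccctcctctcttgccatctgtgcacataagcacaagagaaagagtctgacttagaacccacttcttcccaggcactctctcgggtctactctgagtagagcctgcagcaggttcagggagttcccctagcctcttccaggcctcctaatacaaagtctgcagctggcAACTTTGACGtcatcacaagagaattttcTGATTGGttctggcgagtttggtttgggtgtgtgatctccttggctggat
H2-Eb1: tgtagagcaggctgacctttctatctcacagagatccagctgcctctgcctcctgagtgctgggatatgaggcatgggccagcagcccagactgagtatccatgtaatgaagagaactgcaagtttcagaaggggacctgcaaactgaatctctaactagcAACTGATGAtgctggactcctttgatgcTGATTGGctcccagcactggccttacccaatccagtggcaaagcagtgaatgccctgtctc

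**Figure D2:**
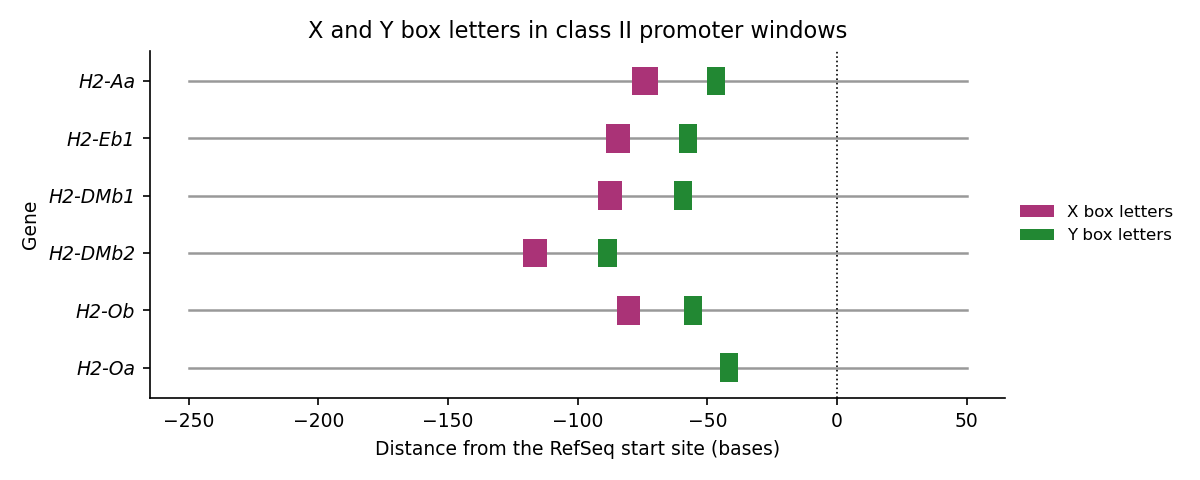
Positions of X box letters (purple) and Y box letters (green) in 6 class II promoter windows, in bases from the RefSeq start site (dotted line at 0). The X box precedes the Y box by 17 to 20 bases in 5 windows, and H2-Oa has the Y box letters alone.

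No gene of the factors on which Ciita docks passed the test. Of 7 genes of RFX, NF-Y and CREB subunits, 0 passed with edgeR, against 1 at unadjusted p under 0.05, and DESeq2 and limma voom each called 0; the median log2 fold change was -0.00407. Nfyb, Nfya and Nfyc had the smallest p, with log2 fold changes of 0.17 (adjusted p = 0.0632), -0.27 (adjusted p = 0.206) and 0.065 (adjusted p = 0.538). Rfx5, the DNA-binding subunit of RFX, averaged 4.63 ± 0.781 CPM in GFP and 4.61 ± 0.781 CPM in arcA livers (SD, n = 8 each). The 95% interval of its log2 difference in bulk liver RNA ran from -0.24 to 0.23. Levels of these factors within the cells that carry class II were not measured, and their part in the class II result was not tested.

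Among genes of the interferon-gamma route to Ciita, Ifngr2, a receptor chain, fell by 0.23 (SE 0.0579, adjusted p = 0.013, edgeR), from 20.4 ± 1.63 to 17.3 ± 1.21 CPM (SD, n = 8 each), in 8 of 8 arcA livers against the GFP median. Irf1, Jak2 and Ifngr1 did not pass, at -0.24, 0.12 and -0.13 (adjusted p = 0.227, 0.302 and 0.344). Ifng, the gene of the cytokine, was too low to test, with 18 counts in the GFP livers together and 2 in the arcA livers, as was the inhibitor gene Socs1, with 106 and 62.

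Of 8 genes of antigen processing in endosomes, proteases and the reductase gene Ifi30, 2 fell and 0 rose, at a median of -0.0203. Ctss, cathepsin S, which trims the invariant chain in antigen-presenting cells, fell by 0.95 (SE 0.229, adjusted p = 0.0152, edgeR), from 29.4 ± 6.79 to 15.2 ± 6.99 CPM (SD, n = 8 each). Lgmn, an asparagine-specific endopeptidase, fell by 0.51 (SE 0.125, adjusted p = 0.015). In 7 of 8 arcA livers each lay under the median of the GFP group. Ifi30, a thiol reductase that unfolds antigens, had a log2 fold change of -0.41 (adjusted p = 0.0572), Ctsb of 0.15 (adjusted p = 0.145) and Ctsl of 0.08 (adjusted p = 0.529).

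Of 4 genes of class II trafficking and turnover, 1 fell. It was Cd83, which keeps class II at the surface of dendritic and B cells by opposing the ubiquitin ligase March1, at -0.93 (SE 0.186, adjusted p = 0.00307, edgeR). March1 had a log2 fold change of -0.89 (adjusted p = 0.0799), March8 of 0.13 (adjusted p = 0.122) and Sppl2a, which cleaves the last remnant of the invariant chain, of 0.067 (adjusted p = 0.563). Of 4 tested genes of the T cell side and of costimulation, 3 fell. On the T cell side, Cd4, the co-receptor for class II, fell by 1.45 (SE 0.361, adjusted p = 0.0132) and Lag3, an inhibitory class II receptor, by 0.87 (SE 0.229, adjusted p = 0.0182). The costimulatory ligand Cd86 fell by 1.38 (SE 0.232, adjusted p = 0.000762). The fourth, Icosl, had a log2 fold change of -0.82 (adjusted p = 0.323).

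**Figure D3:**
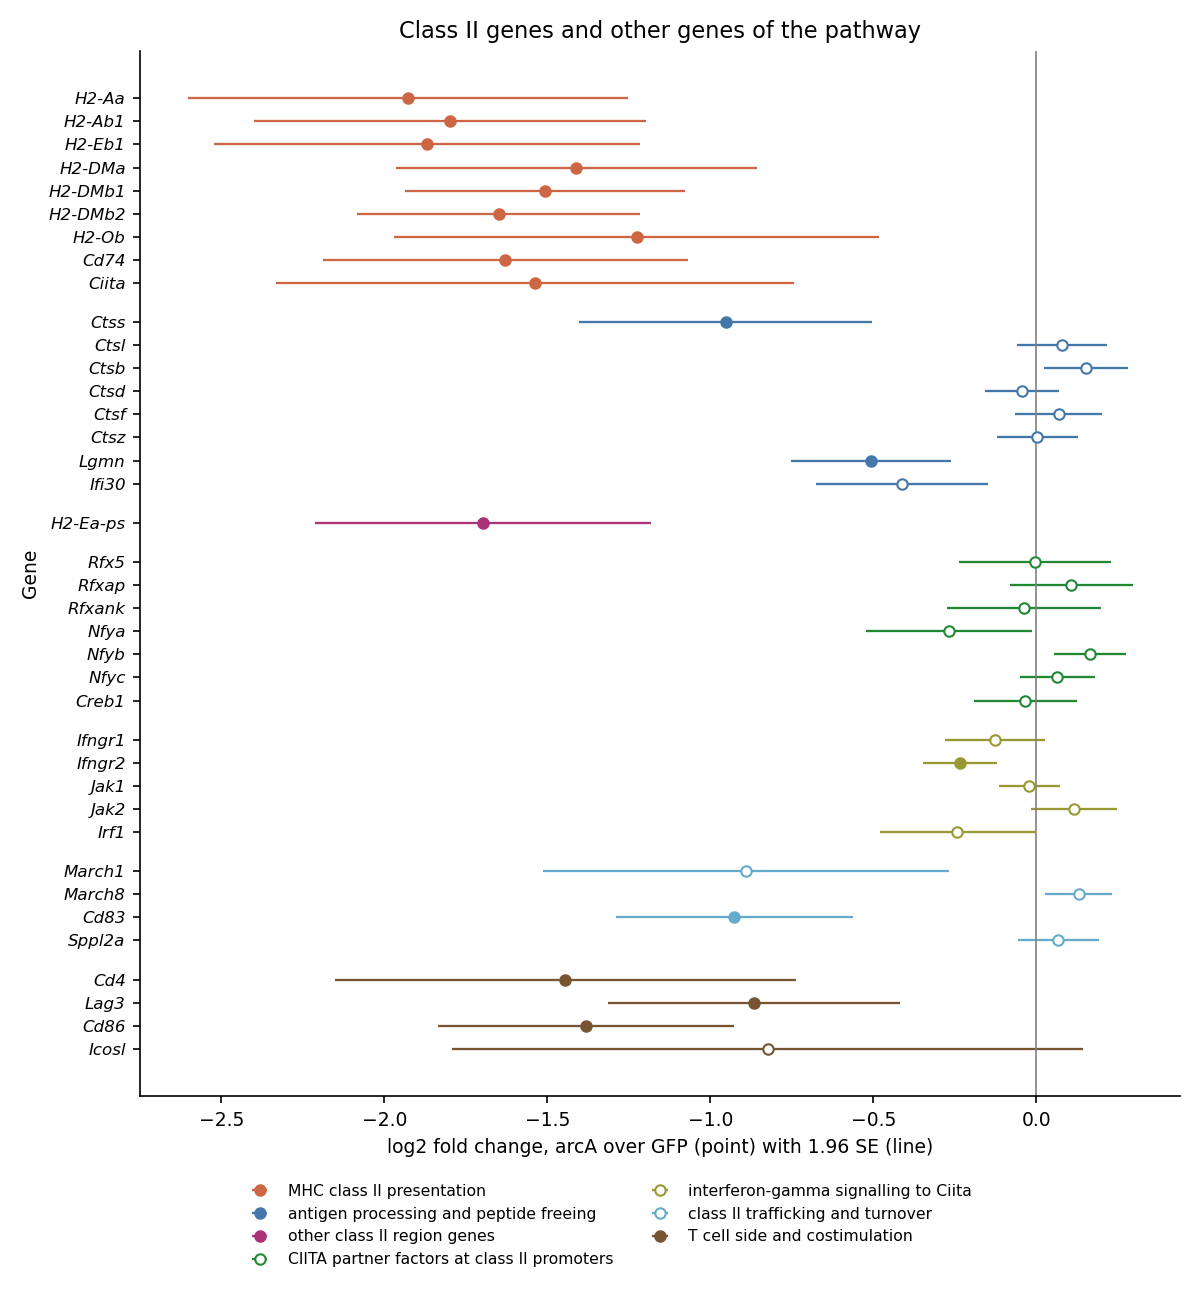
Log2 fold change, arcA over GFP, of the tested class II genes and of other tested genes of the pathway, coloured by list; lines are 95% intervals, filled points passed adjusted p under 0.05 (edgeR) and open points did not. Class II genes lie between -1.93 and -1.23, and the Ciita partner genes between -0.27 and 0.17.

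H2-Aa, H2-Eb1 and H2-Ab1 fell further than Cd74. Library scaling cancels in the log2 ratio of a gene to Cd74 within a liver, apart from the prior count of 2. That prior was added to raw counts and weighs more where counts are low. The ratio was compared between groups for 8 genes by an exact two-sided permutation test. The test took every split of the 16 livers into 8 and 8, with Benjamini-Hochberg adjustment over the 8 genes. The ratio of H2-Aa to Cd74 was -1.35 ± 0.12 in GFP and -1.68 ± 0.14 in arcA livers on the log2 scale (SD, n = 8 each), a difference of -0.33 (adjusted exact permutation p = 0.00373). In counts, this is 39.3 reads of H2-Aa per 100 of Cd74 in GFP and 31.2 in arcA livers. The differences were -0.32 for H2-Eb1 and -0.17 for H2-Ab1 (adjusted exact permutation p = 0.00622 for each). These 3 passed in every fit without 1 library and with a smaller prior count. The ratio of H2-Aa to Cd74 in arcA 3, -1.41, was the highest of the arcA livers.

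The other 5 ratios did not pass and had positive differences. The ratio to Cd74 differed by 0.26 for H2-DMa and by 0.54 for H2-Ob (adjusted exact permutation p = 0.115 for each). It differed by 0.16 for H2-DMb1, 0.23 for Ciita and 0.094 for H2-DMb2 (adjusted exact permutation p = 0.33, 0.48 and 0.489). Without arcA 6, H2-DMa and H2-Ob passed as well (0.33 and 0.65, adjusted exact permutation p = 0.032 and 0.0462). The counts of H2-Ob and Ciita were low, and their ratios spread by 0.68 and 0.63 (SD) among arcA livers against 0.14 for H2-Aa. With a prior count of 0.5, the differences shrank to 0.29 for H2-Ob and 0.15 for Ciita (adjusted exact permutation p = 0.55 and 0.713).

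**Figure D4:**
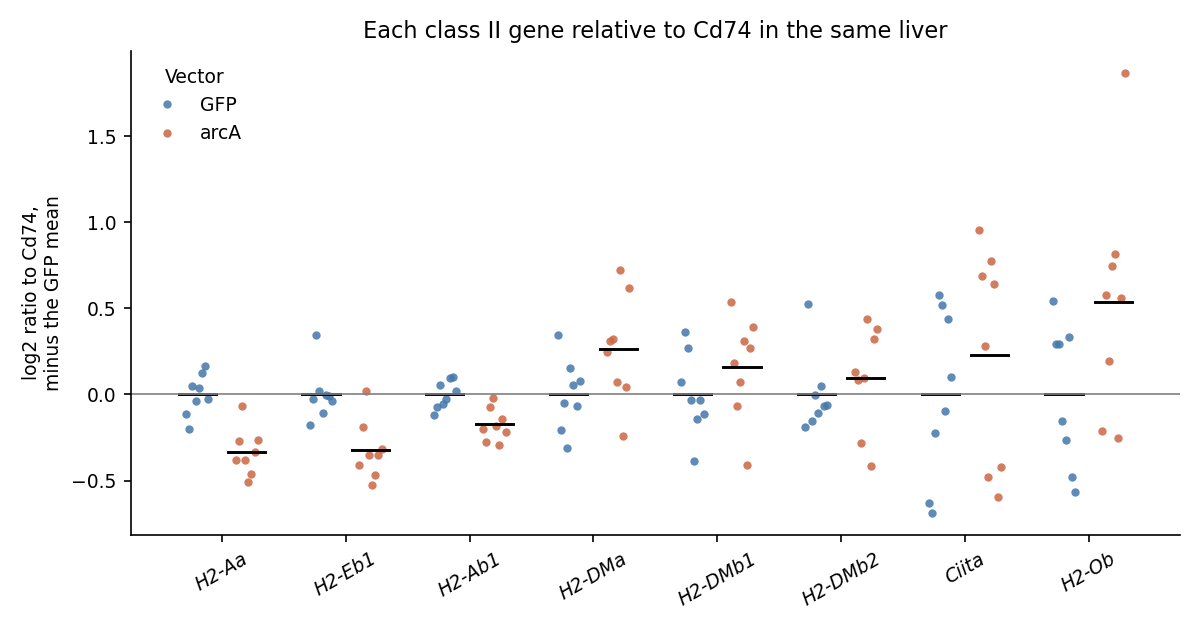
Log2 ratio of each class II gene to Cd74 in the same liver, drawn relative to the GFP mean of that gene; points are 8 GFP and 8 arcA livers and black bars are group means. The arcA means lie at -0.33, -0.32 and -0.17 for H2-Aa, H2-Eb1 and H2-Ab1, and above 0 for the other 5 genes.

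Among livers of the same group, most class II genes varied with Cd74. The log2 CPM of 8 genes was correlated with that of Cd74 within each group of 8 livers, 16 relations in all, with exact permutation p adjusted over the 16. By Pearson's r, 14 passed; without the 2 livers farthest from the median of Cd74, 5 did, those of H2-Aa and H2-Ab1 in both groups and of H2-Eb1 in arcA livers. H2-Ab1 and H2-Aa had the highest r. H2-Ab1 gave Pearson's r of 0.987 and Spearman's rho of 1 in GFP livers (adjusted exact permutation p = 0.000132 and 0.000265) and 0.991 and 1 in arcA livers (adjusted exact permutation p = 0.000132 and 0.000265). H2-Aa had r of 0.985 in GFP and 0.993 in arcA livers (rho 1 and 0.952, adjusted exact permutation p = 0.000132 and 0.000317 for r and 0.000265 and 0.00365 for rho). Without the 2 farthest livers, r was 0.971 and 0.915 for H2-Ab1 and 0.962 and 0.958 for H2-Aa, in GFP and arcA livers. H2-Eb1 gave r of 0.913 and 0.989 (rho 0.929 and 0.952, adjusted exact permutation p = 0.00291 and 0.000317 for r and 0.0051 and 0.00365 for rho), and 0.768 and 0.946 without the 2 farthest livers, where the call in GFP livers was lost (adjusted exact permutation p = 0.146).

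For Ciita and the H2-DM genes, r was lower and moved more with single livers. Ciita had r of 0.888 and rho of 0.905 in GFP livers (adjusted exact permutation p = 0.0075 and 0.00913) and 0.707 and 0.524 in arcA livers (adjusted exact permutation p = 0.0425 and 0.225). Without the 2 farthest livers, its r was 0.743 and 0.464 and no longer passed in either group. H2-DMa had r of 0.888 in arcA livers (rho 0.69, adjusted exact permutation p = 0.0139 and 0.0925), which became 0.365 without the 2 farthest, arcA 3 among them, so that relation rests on those livers. In GFP livers H2-DMa had r of 0.904 (rho 0.929, adjusted exact permutation p = 0.00731 and 0.0051) and 0.837 without the 2 farthest, where the call was lost (adjusted exact permutation p = 0.107). H2-DMb1 had r of 0.783 in GFP and 0.897 in arcA livers (rho 0.667 and 0.81, adjusted exact permutation p = 0.0105 and 0.0075 for r and 0.102 and 0.0348 for rho), and 0.682 and 0.361 without the 2 farthest, neither past the threshold. H2-DMb2 had r of 0.817 and 0.901 (rho 0.738 and 0.833, adjusted exact permutation p = 0.0175 and 0.0075 for r and 0.0667 and 0.0273 for rho), and 0.614 and 0.441 without them, neither past the threshold. H2-Ob showed no relation that passed, with r of 0.418 and 0.569 (rho 0.31 and 0.31, adjusted exact permutation p = 0.299 and 0.162 for r and 0.462 for both rho).

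**Figure D5:**
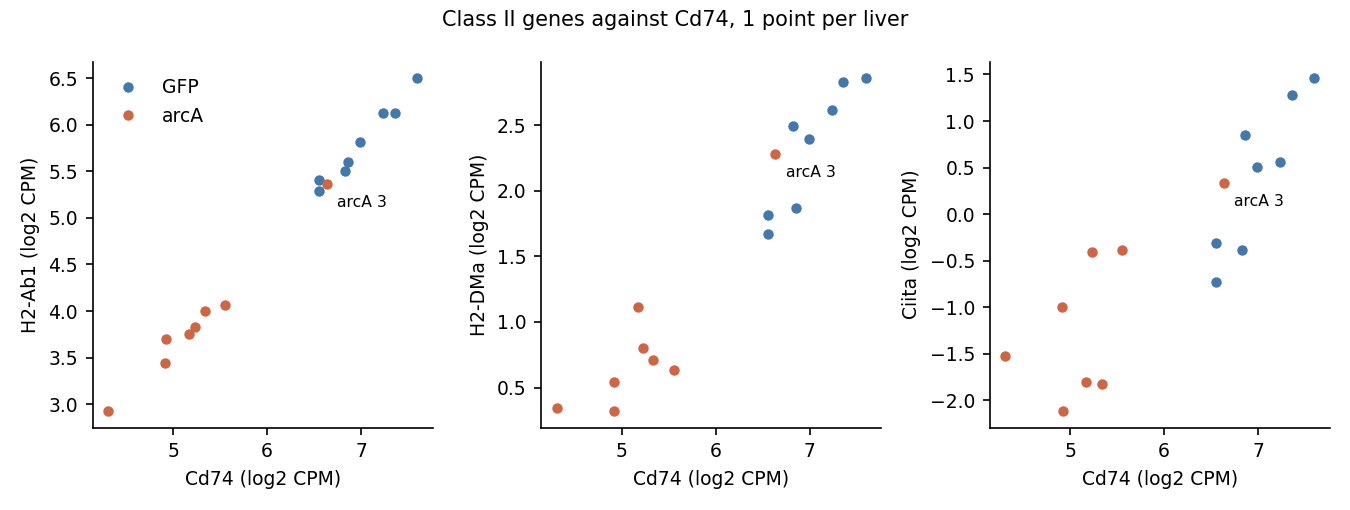
Log2 CPM of H2-Ab1, H2-DMa and Ciita against log2 CPM of Cd74, 1 point per liver (8 GFP, 8 arcA). Points of H2-Ab1 lie close to a line within each group (r of 0.987 and 0.991), those of Ciita are more scattered (r of 0.888 and 0.707), and arcA 3 sits among the GFP livers.

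Outside the class II set, the 5 genes whose pattern was most like that of Cd74 were H2-Ea-ps, Clec1b, Lyz2, Gbp9 and C1qc. Likeness was Pearson's r over the 16 livers after each group's mean was subtracted, ranked among 12087 genes of at least 1 CPM, and is given as a description; all share libraries and depth. The values were 0.969, 0.956, 0.939, 0.938 and 0.934. Clec1b is expressed by Kupffer cells and other cells of the liver sinusoid, Lyz2 encodes lysozyme of macrophages and monocytes, Gbp9 an interferon-induced GTPase and C1qc a complement subunit made by macrophages. In arcA livers they fell by 0.78 (Clec1b, adjusted p = 0.0112), 0.86 (Lyz2, adjusted p = 0.00822), 1.02 (Gbp9, adjusted p = 0.00956) and 0.80 (C1qc, adjusted p = 0.0212) with edgeR.

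Markers of all leukocytes, of Kupffer cells and of monocytes moved in the same direction. The part of any cell type in the class II result was not tested. The summed level of 4 markers of all leukocytes was 20.4 to 35.9 CPM in GFP and 5.81 to 21.1 CPM in arcA livers; 4 of 4 fell, among them Laptm5 (-1.20, adjusted p = 0.000588, edgeR) and Coro1a (-1.74, adjusted p = 0.000329). Of 9 Kupffer cell markers, 4 fell with edgeR, against 7 with unadjusted p under 0.05, while DESeq2 called 6 and limma voom 8. Their log2 fold changes ran from -1.02 to -0.45, at a median of -0.68. The summed level was 176 to 299 CPM in GFP and 73.6 to 265 CPM in arcA livers. Clec4f had a log2 fold change of -0.55 (adjusted p = 0.0271, edgeR) and Cd5l of -0.78 (adjusted p = 0.0735). Of 7 markers of monocytes and the macrophages they form, 6 fell, at a median of -1.05, with a summed level of 49.5 to 72.7 CPM in GFP and 21.2 to 59.2 CPM in arcA livers; Lyz2 is given above, and Plac8 fell by 0.70 (adjusted p = 0.00142).

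Lymphoid and dendritic markers were scarce. Of 8 B cell markers, 2 passed the filter and both fell, Cd22 by 1.76 (adjusted p = 0.00185, edgeR) and Cd79b by 1.46 (adjusted p = 0.0072), and the 8 summed to 1.95 to 5. CPM in GFP and 0.859 to 1.21 CPM in arcA livers. Of 9 markers of conventional dendritic cells, 5 were tested and 1 fell, Itgax, at -2.31 (adjusted p = 0.000669). Zbtb46, a transcription factor of that lineage, had a log2 fold change of -0.14 (adjusted p = 0.572), and the 9 summed to 4.29 to 7.52 CPM in GFP and 3.2 to 5.02 CPM in arcA livers. Much of that sum was Zbtb46 alone, which averaged 2.87 CPM in GFP and 2.59 CPM in arcA livers, of a mean sum of 6.07 and 4.31 CPM. The 3 markers of plasmacytoid dendritic cells were all below the filter and summed to 0.355 to 0.724 CPM in GFP and 0.186 to 0.37 CPM in arcA livers; Ccr9 had 74 and 56 counts and Siglech 94 and 19 in the GFP and the arcA livers together. All 5 tested of 6 T cell markers fell, among them Cd8a (-4.84) and Cd3g (-3.48), with a sum of 5.23 to 10.4 CPM in GFP and 0.442 to 0.96 CPM in arcA livers. No marker of any list was at 0 over a whole group.

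Markers of the other liver cells gave few calls except for stellate cells. Of 6 sinusoidal endothelial markers, 1 fell, with a sum of 66.6 to 107 CPM in GFP and 59.4 to 89.8 CPM in arcA livers; Stab2 and Clec4g had log2 fold changes of -0.17 and -0.14 (adjusted p = 0.348 and 0.565, edgeR). Of 4 stellate cell markers, 3 fell, among them Dcn (-0.50) and Reln (-0.34), with a sum of 179 to 209 CPM in GFP and 118 to 168 CPM in arcA livers. Of 4 bile duct markers, 0 passed with edgeR, with 0 at an unadjusted p under 0.05 and 0 with DESeq2 or limma voom; they summed to 2.83 to 10.4 CPM in GFP and 3.16 to 7.94 CPM in arcA livers, and Sox9 and Krt19 had log2 fold changes of -0.36 and 0.29. Of 5 hepatocyte markers, 0 passed with edgeR, against 4 with unadjusted p under 0.05, and DESeq2 and limma voom each called 2; Alb and Ttr had log2 fold changes of 0.18 and 0.28, Apoa1 had -0.84 (adjusted p = 0.0879), and the sum was 66608 to 77192 CPM in GFP and 62743 to 89623 CPM in arcA livers.

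Relative to Ptprc, which encodes the leukocyte surface protein CD45, Cd74 was lower in arcA livers by a margin that single libraries decide. Ptprc itself fell by 1.37 (SE 0.218, adjusted p = 0.000695, edgeR). The log2 ratio of Cd74 to Ptprc was 4.32 ± 0.19 in GFP and 4.01 ± 0.32 in arcA livers (SD, n = 8 each), a difference of -0.31 (exact two-sided permutation p = 0.0399). The p rose above 0.05 in 8 of the 16 tests without 1 library (GFP 2, 5, 6 or 7, or arcA 2, 4, 5 or 8), up to 0.0789 without GFP 7, where the difference was -0.258.

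The liver arcA 3 lay inside the GFP range for the summed class II genes and macrophage markers, but not for every gene or marker list. Its 10 class II genes summed to 225 CPM, against 208 to 458 CPM in GFP livers and 40.5 to 93.1 CPM in the other arcA livers. Its Kupffer cell markers summed to 265 CPM, with 154 CPM in the next arcA liver. Its markers of monocytes and their macrophages summed to 59.2 CPM and those of all leukocytes to 21.1 CPM, with 32.2 and 11.8 CPM in the next arcA liver. Much of the monocyte sum was Lyz2 alone, which averaged 47.4 CPM in GFP and 26.1 CPM in arcA livers. The mean sums were 59.4 and 32.2 CPM. For Plac8 and Coro1a, every arcA liver, arcA 3 included, lay below every GFP liver. The T cell markers of arcA 3 summed to 0.925 CPM, below the 5.23 to 10.4 CPM of GFP livers. That was inside the 0.442 to 0.96 CPM of the arcA group. Its B cell markers summed to 1.21 CPM, against 1.95 to 5.0 CPM in GFP livers. Plasmacytoid dendritic markers summed to 0.19 CPM, against 0.355 to 0.724 CPM, and stellate cell markers to 127 CPM, against 179 to 209 CPM. Its sums for conventional dendritic, sinusoidal endothelial, bile duct and hepatocyte markers lay inside the GFP range. In the GFP group, GFP 7 was the highest for 8 of the 10 class II genes and GFP 2 the lowest for 6, and arcA 5 was the lowest arcA liver for 6.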

How the data were processed

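The 16 liver samples of db/db mice were sequenced from oligo-dT libraries of Trizol-isolated RNA, per the labels' protocols. The deposited table holds raw read counts per gene symbol for each library. Per the submitters' processing notes, bcl2fastq, STAR 2.5.1a, featureCounts 1.4.6-p5 of the Subread package and build GRCm38 were used; annotation release, strand setting and handling of mates and shared reads: not given in the sources used here. Overlapping or antisense genes could therefore share reads. Among counts from 1 to 20, 69.8% were even, so how many separate fragments a count stands for is uncertain.

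Of 40757 lines of counts, 348 exact copies were removed, and of 85 repeats of a symbol the line with the most counts was kept. Libraries of a group differed by a chi-square of at least 18.5 per gene, more than counting noise gives, and none was merged. Groups came from the titles. Genes passing filterByExpr (14476) were tested with edgeR 4.0.16 (R 4.3.3, TMM scaling, robust quasi-likelihood F test, group as the sole term) and Benjamini-Hochberg adjustment over all of them at 0.05. SE is the log2 fold change divided by the root of F, and 95% intervals use the normal quantile. CPM used TMM-scaled library sizes; log2 values and ratios used a prior count of 2. Coordinates and exon lengths came by symbol from GENCODE M21 (GRCm38). The script was checked on simulated counts.

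All 10 class II genes are named; of pathway lists, the genes past the threshold and up to 3 others of smallest p; of marker lists, the 2 of highest level; and the 5 genes most like Cd74. Also named, after their values were seen, were Gm42418, Rfx5, Apoa1, Ptprc, Siglech and genes below the filter. A gene of the interferon-gamma list is not reported here, so no count is given for that list. The class II genes and lists were chosen with earlier results of these data known. Alternatives were RLE scaling, library size alone, other filters, DESeq2 1.42.0, limma 3.58.1 voom with quality weights, a replicate block, each library left out and, added after seeing the data, scaling on 5 hepatocyte markers and fits without GFP 2, 3 and 5 or without arcA 3 and 8.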

Additional observations from a re-analysis of the deposited data

Results flagged for a closer look

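In each group of 8 livers, the gap between the highest or lowest liver and its neighbour was compared with the range of the group, for the 10 class II genes and their sum. Of 22 groups, 9 had a liver farther out than Dixon's 95% critical value; chance gives about 1 in 20, and these genes follow each other, so the 9 are not independent. The liver arcA 3 stood above the rest of its group for Cd74 (99.5 CPM, next liver 47.0), H2-Aa (37.3, next 13.4), H2-Ab1 (41.2, next 16.7) and H2-Eb1 (35.9, next 12.1). It also stood above for H2-DMa (4.81, next 2.12), H2-DMb1 (2.99, next 1.69), H2-DMb2 (1.61, next 0.978) and the sum of the 10 genes (225 CPM, next 93.1). Among GFP livers, GFP 7 stood above for H2-DMb1 (6.04 CPM, next 4.32).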

How the results depend on the processing

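Every log2 fold change of the 9 tested class II genes kept its sign under each alternative in which it was tested, and in 215 comparisons it also kept its side of the threshold, against 17 in which it did not; those were losses of H2-Ob, and of Ciita with the replicate block. The number of class II genes called lower was 9 with DESeq2, limma voom and RLE scaling, 8 with library size alone, on hepatocyte scaling or without GFP 2, 3 and 5, 7 of 7 tested with at least 1 CPM in at least 8 libraries, and 8 to 9 when 1 library was left out. Over all genes, 732 to 1096 were lower and 389 to 620 higher without 1 library. The higher genes numbered 253 with library size alone, 407 with the 1 CPM filter, 369 without GFP 2, 3 and 5, 192 on hepatocyte scaling, 389 without GFP 2 and 411 without GFP 7; the cause was not tested. The number of ratios to Cd74 that passed was 3 to 5 without 1 library, and the ratio of Cd74 to Ptprc ranged from -0.364 to -0.246. Of 16 correlations with Cd74, 14 passed, and 5 did without the 2 livers farthest from its median, with 6 livers left.

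With a replicate block, 876 genes were lower and 592 higher, 7 of the 9 class II genes were lower (H2-Ob and Ciita lost the call, adjusted p = 0.0731 and 0.0844), 3 ratios to Cd74 passed, and the ratio of Cd74 to Ptprc, -0.307, had an exact sign-flip permutation p of 0.0547. Same-numbered livers correlated at -0.0487 to 0.159 in their deviations from the group means, and 1 of 8 correlated best with its own number. Likeness by number was weak, which cannot exclude a pairing, and the labels state none. Depth limited H2-Oa and H2-Ob: the table holds 21 and 117 counts of them in the GFP livers together.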

Other observations

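The chains that pair with each other did not change by equal amounts. The log2 ratio of H2-Aa to its partner H2-Ab1 was -0.14 ± 0.0646 in GFP and -0.30 ± 0.14 in arcA livers (SD, n = 8 each), a difference of -0.16 (exact two-sided permutation p = 0.00995, 0.0123 adjusted over 2 ratios), with 8 of 8 arcA livers below the GFP median. That of H2-Eb1 to its partner H2-Ea-ps was 1.37 ± 0.0944 and 1.11 ± 0.23, a difference of -0.27 (exact permutation p = 0.0123, 0.0123 adjusted), with 7 of 8 below. Both ratios were chosen after the values were seen. Both kept their call when any 1 library was left out, and neither did when livers were paired by replicate number (adjusted exact permutation p = 0.0547 for each).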
